A study of Mus musculus with 16 samples.

Results

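Desipramine (DMI) was given to mice that had undergone sham surgery in place of nerve injury. Their dorsal root ganglia (DRG) were compared by RNA sequencing with those of sham mice given saline. The comparison takes in 8 of the 16 libraries of the series, chosen by their labels as sham plus DMI or sham plus saline, with 4 libraries in each group and 1 mouse per library. The remaining 8 libraries came from mice with spared nerve injury (SNI), a model of neuropathic pain in which some branches of the sciatic nerve are cut and another is left intact, and they were also treated with saline or DMI in groups of 4. All animals were male C57Bl6/J mice aged 3 to 4 months. Sham-DMI mice received 15 mg/kg DMI in saline by intraperitoneal injection 2 times a day for 3 weeks, and Sham-Saline mice received saline alone on the same schedule. Dosing began 4 weeks after surgery in one description and 4 months after it in another. RNA came from the lumbar DRG of levels 3 to 6, pooled within an animal.

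DMI is a tricyclic antidepressant that blocks the noradrenaline transporter, the product of Slc6a2, at noradrenergic nerve terminals. It is also an amphiphilic weak base that collects in lysosomes, where it impairs acid sphingomyelinase, the product of Smpd1. The DRG house the cell bodies of sensory neurons for pain, itch, touch and limb position, wrapped by satellite glia and mixed with Schwann cells, vessels and resident immune cells. Sensory neurons carry very long axons, so their mitochondria, ribosomes and cytoskeleton account for a large part of what the cell body makes. Because whole ganglia were sequenced, fewer cells of a type and less RNA per cell cannot be told apart in any result below.

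In the labels the tissue field reads spinal cord while the cell type field reads DRG, and the defining markers of sensory neurons stood far above those of the spinal cord. Prph, an intermediate filament of peripheral neurons, stood at 1436 to 1601 CPM (read counts scaled to normalised library size) in Sham-Saline and 1587 to 1959.9 CPM in Sham-DMI, and the nociceptor sodium channel gene Scn10a at 1114 to 1364 and 1129.6 to 1302 CPM. The spinal oligodendrocyte gene Mog did not exceed 0.268 CPM in any sham library, and Chat, a marker of spinal motor neurons, did not exceed 0.0453 CPM, while the myelin gene Mobp stood at 3.4954 to 13.7 and 3.82 to 12.6 CPM, the astrocyte gene Aqp4 at 11.3 to 13.2 and 7.53 to 11.9 CPM and Gfap at 1.84 to 5.07 and 1.60 to 3.03 CPM. Of 11 spinal oligodendrocyte and astrocyte markers 3 were called lower with DMI and none higher, among them Gfap (-0.69, adjusted p = 0.0863), whose call ended without any 1 of 6 libraries (adjusted p up to 0.293). The list summed to 122 to 135 CPM in Sham-Saline and 88.3 to 119 CPM in Sham-DMI, without overlap. Of 4 spinal neuron markers tested 2 were called lower, and 0 to 2 with 1 library left out. With trends in GC content and transcript length removed, as described below, 0 were called lower. Over all tested genes 11.9% were called lower. Reads on genes ran from 41194238 (Sham-DMI 3) to 73920332 (Sham-DMI 2) per library. On the first principal component of the 8 libraries, which held 27.2% of the variance, the Sham-Saline libraries lay between -30.0 and -15.9 and the Sham-DMI libraries between 3.55 (Sham-DMI 2) and 48.6 (Sham-DMI 1). The library numbers run from 17 to 20 in Sham-DMI and from 37 to 40 in Sham-Saline, so that library order and DMI cannot be told apart. Sham-DMI 1 stood apart from its group on this component, where the others did not exceed 20.1, and in the GC content of its reads (50.5% against at most 50.2%). Sham-Saline 1 held 64.3 CPM of skeletal muscle transcripts against at most 11.7 CPM in the other sham libraries, and Sham-DMI 2 and Sham-DMI 4 held the most transcripts of nerve injury, described below.

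A large share of DRG transcripts differed between Sham-DMI and Sham-Saline, by small amounts. Of 5010 genes called at an adjusted p under 0.1 among 21371 tested (23.4%), 2475 were higher in Sham-DMI (11.6%) and 2535 were lower (11.9%), by edgeR's quasi-likelihood test with Benjamini-Hochberg adjustment. The median log2 fold change was 0.25 among the higher genes and -0.32 among the lower genes, and 51 higher and 179 lower genes changed by a log2 fold change of at least 1. The groups did not overlap for 3662 genes (17.1%), of which 3125 were also called (14.6%). With the thresholds used in the study (nominal p under 0.05 with log2 fold change beyond 0.32 in either direction) there were 2457 differentially expressed genes (DEGs; 11.5%), with 840 higher (3.93%) and 1617 lower (7.57%). Lowered genes had less GC and longer transcripts than raised genes, as described below, and once trends with both were removed 1989 genes were called higher (9.31%) and 1218 lower (5.7%), so that the share of calls that were higher went from 49.4% to 62.02%. Without Sham-Saline 3 the number called was 3286, the lowest of the 8 fits that left out 1 library, and without Sham-DMI 1 it was 3420.

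The genes raised with the smallest p were led by parts of the respiratory chain and by small housekeeping proteins. Ndufs7, an iron-sulfur subunit of complex I, read 75.7, 80.95, 67.5 and 77.2 CPM in the Sham-Saline libraries and 105, 98.99, 99.7 and 117 CPM in the Sham-DMI libraries. Every Sham-DMI library lay above every Sham-Saline library (log2 fold change 0.48 ± 0.062, adjusted p = 0.00176, edgeR's quasi-likelihood test as for all adjusted p-values here). Elob, which encodes the ubiquitin ligase adaptor elongin B, read 135, 141, 127 and 133 CPM with saline and 199, 156, 187 and 188 CPM with DMI, again without overlap (log2 fold change 0.44 ± 0.06, adjusted p = 0.00176). The same rule named Aprt for adenine salvage (0.51 ± 0.065), the ATP synthase ring gene Atp5g2 (0.53 ± 0.069), the complex I genes Ndufb10 (0.45 ± 0.063) and Ndufs5 (0.46 ± 0.066), the prefoldin chaperone gene Pfdn6 (0.39 ± 0.055), the cytokine gene Mif (0.51 ± 0.072), biliverdin reductase Blvrb (0.34 ± 0.048), brain creatine kinase Ckb (0.39 ± 0.056), Tmem59l (0.38 ± 0.054) and 1110008P14Rik (0.47 ± 0.066), all as log2 fold change ± SE at an adjusted p of 0.00176. None of these 12 lost its call in any alternative, including the removal of GC and length trends.

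The lowered genes with the smallest p have varied known functions. Col4a3bp, which encodes the ceramide transfer protein, read 182, 169, 176 and 179 CPM in Sham-Saline and 137, 146, 141 and 126 CPM in Sham-DMI (log2 fold change -0.36 ± 0.048, adjusted p = 0.00176). All 4 DMI values lay below all 4 saline values. Zfp758, a zinc finger gene, went from 15.9, 12.4, 11.997 and 12.4 CPM to 5.53, 7.49, 6.47 and 6.35 CPM, a 2.03-fold decrease (log2 fold change -1.02 ± 0.15, adjusted p = 0.00176). Others were the hedgehog modulator Mosmo (-0.38), Ccdc50 (-0.41), the small GTPase gene Arl5a (-0.36), the ubiquitin ligase scaffold Cul3 (-0.38), the chromatin gene Dek (-0.39), Mtdh (-0.36), the acetyltransferase gene Naa30 (-0.51) and Thsd7a (-0.52), with SE from 0.052 to 0.079 on the log2 scale and the same adjusted p. All the genes named here were still called with GC and length trends removed, with adjusted p up to 0.0904. With the replicate block in addition Mtdh was not called (-0.14, adjusted p = 0.124).

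The nuclear genes of oxidative phosphorylation rose nearly as a whole. The respiratory chain of complexes I to IV passes electrons to oxygen and pumps protons across the inner mitochondrial membrane, and ATP synthase, complex V, uses the gradient. Of 36 tested nuclear complex I genes 35 were called higher and none lower, with a median log2 fold change of 0.31 against -0.021 over all tested genes, and Ndufs1 alone was not called (log2 fold change 0.11). Of 43 genes for complexes III, IV and V 35 were called higher (median 0.34), and the 8 that were not included the tissue-restricted isoforms Cox8b, Cox6a2, Cox7a1 and Cox4i2. Uqcrh, the hinge protein of complex III, read 136, 156, 132 and 152 CPM with saline and 225, 168, 192 and 203 CPM with DMI (log2 fold change 0.45 ± 0.074, adjusted p = 0.00194). Cox4i1 of complex IV read 252, 265, 235 and 257 and 360.1, 296, 324 and 333 CPM (log2 fold change 0.38 ± 0.062, adjusted p = 0.00194), and Atp5o of the ATP synthase stalk 139, 147, 131 and 139 and 181, 163, 171 and 187 CPM (log2 fold change 0.34 ± 0.052, adjusted p = 0.00176). In Uqcrh, Cox4i1 and Atp5o alike the groups did not overlap, and Sham-DMI 2 was the lowest of the DMI libraries. Ndufb7 of complex I was similar (0.47, adjusted p = 0.00176). With GC and length trends removed the counts were 33 and 31, and leaving out any 1 library gave at least 35 and 32. The summed level of the complex I genes ran from 3030.3 to 3442 CPM in Sham-Saline and from 3661 to 4325 CPM in Sham-DMI. This sum holds the same genes and libraries as the calls and is no separate evidence. SNI-Saline libraries, from mice without DMI, also lay above all Sham-Saline libraries, at 3554 to 3922 CPM.

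Genes for making and clearing protein moved the same way. Of 81 cytosolic ribosomal protein genes 74 were called higher and none lower (median log2 fold change 0.31), and of 76 mitochondrial ribosomal protein genes 61 were (median 0.25). Rpl27 read 40.6, 41.2, 39.2 and 41.3 CPM in Sham-Saline and 56.7, 47.9, 51.4 and 58.6 CPM in Sham-DMI (log2 fold change 0.40 ± 0.059, adjusted p = 0.00176), and Mrpl52 23.1, 24.95, 21.5 and 25.2 and 37.1, 29.6, 28.7 and 34.8 CPM (log2 fold change 0.46 ± 0.075, adjusted p = 0.00194). Neither overlapped between groups. Rpl28 (0.38), Rpl8 (0.34) and Mrpl4 (0.34) were called as well. Of 34 genes of the constitutive proteasome, which degrades ubiquitin-tagged proteins, 24 were called higher (median 0.22), among them the catalytic subunit Psmb5 (0.40, adjusted p = 0.00176) and the ATPase Psmc4 (0.31, adjusted p = 0.00212). With GC and length trends removed, 69 cytosolic and 55 mitochondrial ribosomal genes and 28 proteasome genes were called higher. SNI-Saline, without DMI, also lay above Sham-Saline in the summed level of each list. Cytosolic ribosomal genes stood at 7592 to 8180 CPM in SNI-Saline and 6354 to 7203 CPM in Sham-Saline. Mitochondrial ones stood at 2616 to 2861 and 2323 to 2550 CPM, and proteasome genes at 4913 to 5284 and 4441 to 4734 CPM. Ribosomal protein genes have many processed pseudogenes, near-identical copies that can share reads with them, and the counting rule for such reads bears on both. Of 2077 processed pseudogenes tested, 262 were called higher and 36 lower, including Rpl28-ps3 (0.94) and Gm5256 (0.91), 2 of the 5 largest rises under the naming rule, and their levels are uncertain for that reason.

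**Figure D1:**
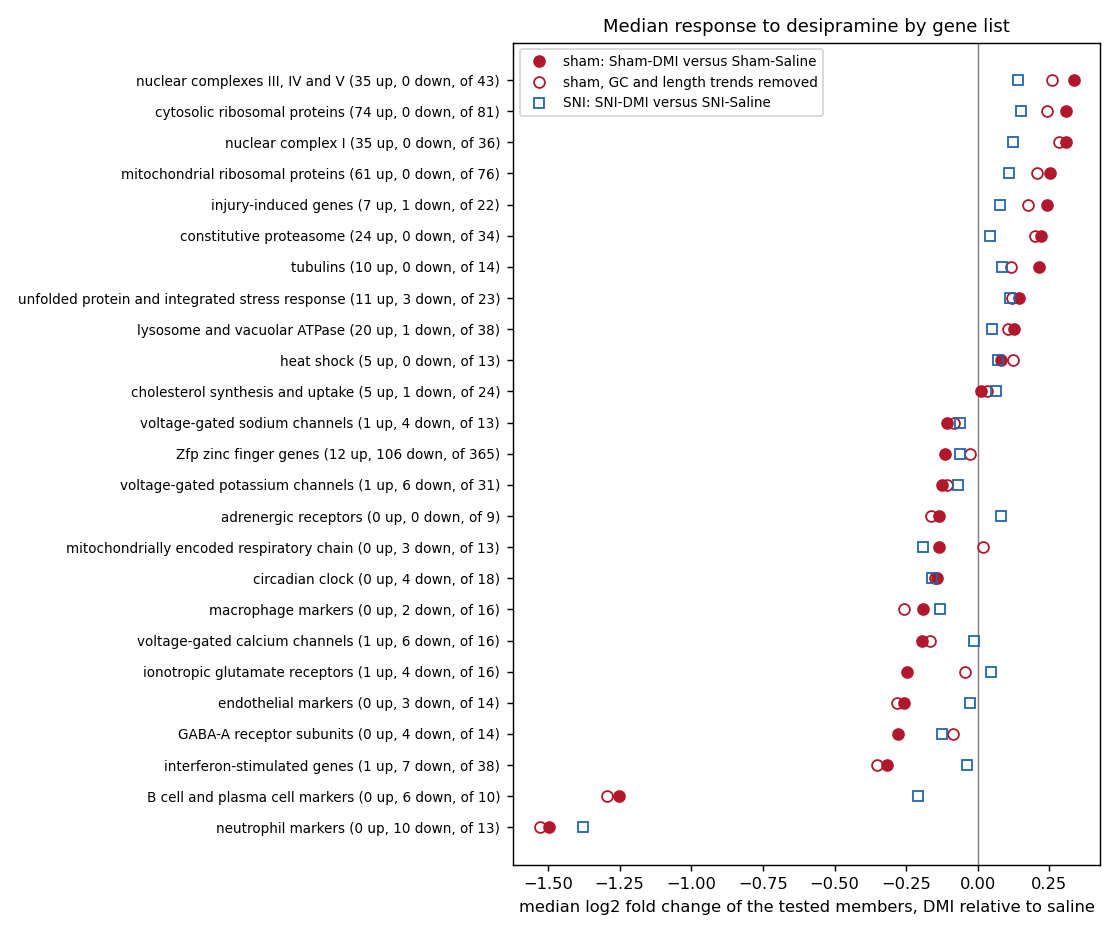
Median log2 fold change of the tested members of 25 gene lists (x axis, DMI relative to saline), under sham (filled circles), under sham with GC and length trends removed (open circles) and under SNI (open squares), with the number called higher and lower of those tested beside each name. Lists of the nuclear respiratory chain, ribosome and proteasome lie right of 0 in all 3, and the neutrophil and B cell lists lie farthest left under sham.

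The promoters of Uqcrh and Mrpl52 are shown as those of raised genes that hold the ETS motif CCGGAAG, which ETS family factors such as GABPA bind at many housekeeping genes. The 250 bases before the start site come from RefSeq on GRCm38.p6, and the motif, searched on both strands, is in capitals, here as its reverse complement. It begins 10 bases before the start of Uqcrh and 47 bases before that of Mrpl52. The Uqcrh window is chr4:116075071-116075320 on the minus strand, the Mrpl52 window chr14:54426659-54426908 on the plus strand.
Uqcrh: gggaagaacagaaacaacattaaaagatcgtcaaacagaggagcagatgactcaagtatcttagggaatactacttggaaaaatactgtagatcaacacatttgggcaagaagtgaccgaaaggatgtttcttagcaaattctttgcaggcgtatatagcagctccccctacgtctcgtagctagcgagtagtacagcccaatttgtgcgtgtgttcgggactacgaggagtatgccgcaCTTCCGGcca
Mrpl52: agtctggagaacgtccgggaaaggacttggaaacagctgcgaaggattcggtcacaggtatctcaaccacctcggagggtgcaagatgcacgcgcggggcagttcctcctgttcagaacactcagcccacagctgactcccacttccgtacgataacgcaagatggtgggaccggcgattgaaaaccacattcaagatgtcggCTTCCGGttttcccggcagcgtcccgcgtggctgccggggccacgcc
The motif was present in 29.5% of the 61 cytosolic ribosomal protein promoters found, 22.4% of the 67 mitochondrial ribosomal ones, 22.6% of the 31 for complexes III to V and 6.25% of the 32 for complex I. Among all 13441 tested genes with a promoter sequence it was present in 11.7%, among the called higher in 17.96% and among the called lower in 10.5%. The Zfp genes, of which more were called lower than higher, held it in 18.1%. These shares count letters in a window, not binding.

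The mitochondrial genome did not follow the nuclear genes of the respiratory chain. Of its 13 protein genes none was called higher and 3 were called lower. These were mt-Co3 (20.9, 20.8, 17.6 and 18.5 CPM with saline, 13.6, 16.8, 16.2 and 10.9 CPM with DMI, -0.44, adjusted p = 0.0408), mt-Atp8 (-0.65, adjusted p = 0.0488) and mt-Nd4l (-0.34, adjusted p = 0.0995). Each overlaps a neighbouring mitochondrial gene on the same strand. The calls of mt-Co3 and mt-Atp8 ended with trends removed (adjusted p = 0.108 and 0.313). They also ended without Sham-Saline 1, Sham-DMI 1 or Sham-DMI 4, mt-Atp8 also without Sham-Saline 3, at adjusted p up to 0.144 and 0.144. The call of mt-Nd4l ended without any 1 of 7 libraries (adjusted p up to 0.294). With trends removed 1 was called lower and 1 higher, the latter mt-Nd4 (log2 fold change 0.037 before and 0.32 after, adjusted p = 0.0109), and the median of the list turned from -0.13 to 0.019. The mitochondrial share of reads on genes was 1.05% to 1.11% in Sham-Saline and 0.861% to 1.18% in Sham-DMI (exact two-sided permutation p = 0.543, n = 4 per group).

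The largest decreases under the naming rule were in mitochondrial tRNA genes, and they came from 1 place. The genes mt-Ta, mt-Tn, mt-Tc and mt-Ty, for the tRNAs of alanine, asparagine, cysteine and tyrosine, lie in a row on the minus strand of GRCm38 between mt-Nd2 and mt-Co1, with the origin of light-strand replication among them. mt-Ta spans chrM:5018-5086, mt-Tn chrM:5089-5159, mt-Tc chrM:5192-5257 and mt-Ty chrM:5260-5326. Their sequences are shown because these 4 were called together while their flanking genes were not, with the anticodon in capitals.
mt-Ta: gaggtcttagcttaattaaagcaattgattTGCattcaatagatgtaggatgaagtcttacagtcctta
mt-Tn: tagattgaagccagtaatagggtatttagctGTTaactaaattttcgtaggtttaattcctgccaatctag
mt-Tc: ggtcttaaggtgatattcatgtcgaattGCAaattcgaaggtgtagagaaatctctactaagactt
mt-Ty: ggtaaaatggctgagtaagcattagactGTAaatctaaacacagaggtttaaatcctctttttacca
Asparagine's gene, mt-Tn, read 2.14, 2.22, 2.07 and 3.32 CPM in Sham-Saline and 0.290, 0.837, 0.599 and 0.236 CPM in Sham-DMI, a 4.94-fold decrease (log2 fold change -2.30 ± 0.40, adjusted p = 0.00216). The cysteine gene mt-Tc read 3.41, 3.06, 2.80 and 4.32 and 0.581, 1.32, 0.874 and 0.615 CPM (log2 fold change -1.99 ± 0.35, adjusted p = 0.00229). The alanine gene mt-Ta read 2.37, 2.33, 2.13 and 2.99 and 0.444, 0.947, 0.949 and 0.394 CPM (log2 fold change -1.85 ± 0.35, adjusted p = 0.00327). In these, every DMI library lay below every saline library. The tyrosine gene mt-Ty, named after its values were seen, read 1.30, 1.16, 1.01 and 1.24 and 0.307, 0.494, 0.450 and 0.363 CPM (log2 fold change -1.54 ± 0.24, adjusted p = 0.00188), also without overlap. Summed over the 4 genes, each library held 515 to 786 reads in Sham-Saline and 95 to 262 in Sham-DMI. The flanking genes on the plus strand, mt-Nd2 (-0.12, adjusted p = 0.425) and mt-Co1 (-0.073, adjusted p = 0.648), were not called, and of the other 8 tested mitochondrial tRNA genes only mt-Te was (-0.42, adjusted p = 0.0438). The call of mt-Te ended with trends removed (adjusted p = 0.623) and without any 1 of 4 libraries (adjusted p up to 0.138). The calls of the 4 held in every alternative. In SNI mice, whose libraries are separate, the 4 were also lower with DMI, by -1.20, -1.58, -1.23 and -0.91 on the log2 scale (adjusted p from 0.0841 to 0.110), and SNI-Saline held 3.26 to 6.68 CPM of the 4 together against 8.02 to 11.9 CPM in Sham-Saline. The libraries were made with a stranded kit for messenger RNA, which captures polyadenylated RNA, and the use of strand in counting is not given in the sources used here, so these reads are a small and selected part of the transcripts of that stretch.

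**Figure D2:**
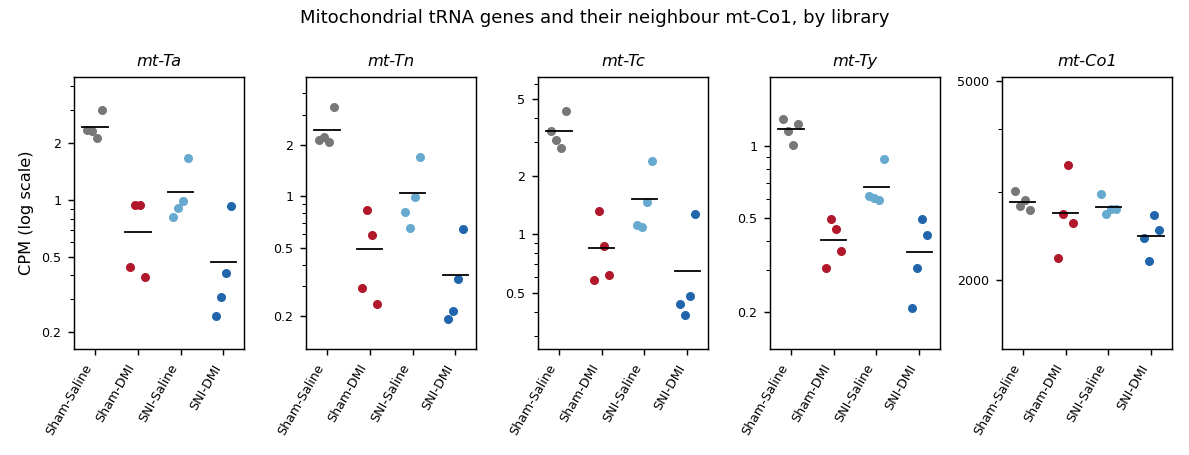
CPM on a log axis of the tRNA genes mt-Ta, mt-Tn, mt-Tc and mt-Ty and of the neighbouring mt-Co1 in each of the 16 libraries, with a bar at each group mean. For the tRNA genes all Sham-DMI points lie below all Sham-Saline points, and for mt-Co1 the Sham-Saline and Sham-DMI points overlap.

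The genes that fell were long and poor in GC. Called lower genes had a median GC content of 43.7% in their longest transcript and a median exon length of 6730 bases, called higher genes 52.8% and 2469 bases, and all tested genes 49.4% and 3404 bases. Tested genes were parted into 5 equal bins. In the bin with the least GC, 30.1% were called lower and 2.77% higher, with a median log2 fold change of -0.19. In the bin with the most GC, 3.24% were called lower and 18.4% higher, with a median of 0.058. By exon length the medians ran from 0.13 in the bin of shortest genes to -0.14 in the longest. The GC content of the counted reads, taken gene by gene, was 49.7, 49.97, 49.96 and 49.9% in Sham-Saline and 50.5, 50.1, 50.2 and 50.1% in Sham-DMI, without overlap (exact two-sided permutation p = 0.0286, n = 4 per group). Read pairs that could belong to more than 1 gene took 3.13% ± 0.0597 (SD, n = 4) with saline and 3.33% ± 0.0879 (SD, n = 4) with DMI (exact two-sided permutation p = 0.0286). Under SNI the medians for the same bins of GC ran from -0.14 to 0.094. The part of these gradients in the calls of single genes was not tested beyond the following fit. With smooth trends on GC and length taken out within each library, 1487 of the called higher genes (60.1%) and 1056 of the called lower genes (41.7%) were still called in the same direction.

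**Figure D3:**
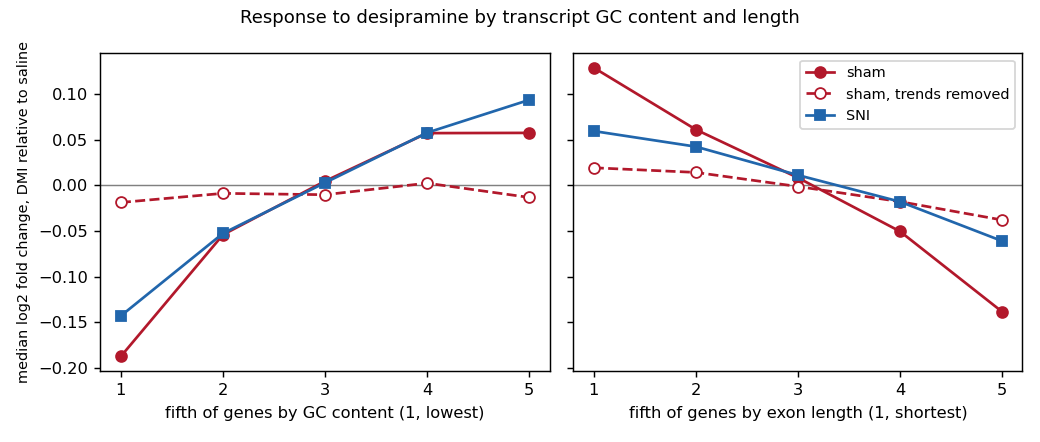
Median log2 fold change (y axis, DMI relative to saline) in 5 equal bins of the tested genes by GC content of the longest transcript (left) and by exon length (right), under sham before and after the trends were removed and under SNI. Under sham the medians rise with GC from -0.19 and fall with length to -0.14, and both lines are near 0 once the trends are removed.

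Of the gene lists described here, that of the zinc finger genes was the largest and held the most lowered members by number. Their products, many with a KRAB domain, bind DNA and silence transposons and genes. Of 365 tested Zfp genes 106 were called lower and 12 higher (median log2 fold change -0.11), and 34 lower and 14 higher once the trends were removed (median -0.028). The share called lower was 29.04%, against 11.9% of all tested genes and 30.1% in the bin with the least GC. The median GC content of the list was 44.1%. Without Sham-DMI 1 61 were called lower, and without Sham-Saline 1 or 3 it was 68 or 64. Zfp942 read 16.5, 13.9, 13.7 and 15.6 CPM in Sham-Saline and 6.44, 10.2, 7.97 and 7.98 CPM in Sham-DMI (log2 fold change -0.87 ± 0.15, adjusted p = 0.00212), and Zfp979 4.38, 4.02, 3.63 and 4.88 and 1.83, 2.15, 2.35 and 1.20 CPM (log2 fold change -1.17 ± 0.21, adjusted p = 0.00229). In both, the groups did not overlap. Zfp934 was called too (-0.67, adjusted p = 0.00212). These 3 and Zfp758 were still called with trends removed, at adjusted p from 0.00290 (Zfp758) to 0.0422 (Zfp934). Zfp genes share sequence with one another, and read pairs aligned in more than 1 place were tallied apart from the gene counts. Such pairs made up 5.94% on average in Sham-Saline and 6.24% in Sham-DMI (exact two-sided permutation p = 0.0571, n = 4 per group). Their part in the levels of close copies was not tested. Other large decreases under the naming rule were those of Syt10, a synaptotagmin of secretory vesicles (1.98, 2.15, 1.65 and 2.51 CPM with saline and 0.495, 1.25, 0.924 and 0.678 CPM with DMI, -1.30, adjusted p = 0.0183), and Gm44321 (-1.25, adjusted p = 0.00493), which overlaps Krcc1 on the same strand.

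Ion channel and receptor genes that set the excitability of sensory neurons were called lower more often than higher, which is also so for long genes in general. Over all tested genes 11.9% were called lower, and in the bin of longest genes 31.01% were called lower and 3.35% higher, while the shares called lower in the lists below ran from 19.4% (potassium channels) to 37.5% (calcium channels). Of 16 calcium channel genes 6 were called lower and 1 higher, of 13 sodium channel genes 4 and 1, of 31 potassium channel genes 6 and 1, of 14 GABA-A receptor genes 4 and 0, and of 16 ionotropic glutamate receptor genes 4 and 1. With trends removed the numbers called lower were 3, 2, 4, 1 and 1 in the same order. With 1 library left out 3 to 7, 2 to 5, 3 to 11, 1 to 6 and 2 to 5 were called lower. Without Sham-DMI 1 the numbers were 4, 2, 3, 1 and 2, and without Sham-Saline 3 they were 3, 2, 3, 1 and 3. Sodium channels also stood at 2 without Sham-Saline 1, Sham-Saline 4 or Sham-DMI 4, and calcium channels at 3 without Sham-DMI 4. Cacna2d1, the calcium channel subunit that binds gabapentin, read 291, 291, 312 and 325 CPM in Sham-Saline and 186, 255, 217 and 166 CPM in Sham-DMI (log2 fold change -0.57 ± 0.11, adjusted p = 0.00314). Scn9a, the sodium channel gene whose loss abolishes pain in people, read 658, 527, 592 and 608 CPM with saline and 358, 531, 459 and 404 CPM with DMI (log2 fold change -0.44 ± 0.10, adjusted p = 0.00694). For Cacna2d1 the groups did not overlap, whereas for Scn9a Sham-DMI 2 lay within the range of saline, and both were still called with trends removed (log2 fold changes -0.33 and -0.25, adjusted p = 0.0329 and 0.0191). In SNI-Saline, without DMI, Scn9a read 413 to 500 CPM, also below all Sham-Saline libraries. The potassium channel genes Kcnh7 (-0.55, adjusted p = 0.00770) and Kcnq3 (-0.33, adjusted p = 0.00895) and the kainate receptor gene Grik3 (-0.38, adjusted p = 0.0157) also fell and held with trends removed. The calls of Cacna1e (-0.46), Kcnb2 (-0.41) and Gria2 (-0.33) ended with trends removed, and the estimate for Gria2 turned to 0.065. The call of Gria2 also ended without Sham-DMI 1 (adjusted p = 0.125).

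Among the transduction channels, Asic3, an acid-sensing channel of muscle and joint afferents, rose from 154, 136, 133 and 135 CPM to 186, 177, 194 and 178 CPM (log2 fold change 0.40 ± 0.06, adjusted p = 0.00176). The groups did not overlap, and Trpv2 rose as well (0.21, adjusted p = 0.0173). Trpm7 (-0.42, adjusted p = 0.0123) and the heat sensor Trpm3 (-0.45, adjusted p = 0.0263) fell, the former not called with trends removed (adjusted p = 0.102). The mu opioid receptor gene Oprm1, the target of morphine, read 24.97, 19.6, 23.5 and 20.4 CPM in Sham-Saline and 9.39, 23.5, 13.9 and 12.5 CPM in Sham-DMI. Sham-DMI 2 lay within the saline range and the others below it, and its call (-0.57, adjusted p = 0.0950) ended without any 1 of 7 of the 8 libraries, with adjusted p up to 0.280. Of the 8 opioid genes no other was called.

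Markers of neuron classes were called in both directions, beside 11.6% called higher and 11.9% lower over all tested genes. None of 6 markers of C-fibre low threshold mechanoreceptors was called. Of 8 non-peptidergic nociceptor markers 1 was called lower, and of 7 itch neuron markers 2 were called higher. Of 14 markers of large myelinated (A-fibre) neurons 3 were called higher (21.4%) and 2 lower (14.3%). Pvalb, the calcium buffer of proprioceptive neurons, read 81.6, 73.6, 54.7 and 52.4 CPM in Sham-Saline and 95.9, 94.4, 83.8 and 106 CPM in Sham-DMI, with no overlap (log2 fold change 0.54 ± 0.12, adjusted p = 0.00752), and the lactate dehydrogenase gene Ldhb rose too (0.36, adjusted p = 0.00229). The neurotrophin receptor genes Ntrk2 (-0.30, adjusted p = 0.00896) and Ntrk3 (-0.46, adjusted p = 0.0326) were lower, and both calls ended with trends removed, that of Ntrk3 also without Sham-Saline 1 or Sham-DMI 1 (adjusted p = 0.116 and 0.122). Of 9 peptidergic nociceptor markers 2 were called higher, including Calca for the peptide CGRP (0.19, adjusted p = 0.0771, not called without any 1 of 5 libraries, with adjusted p up to 0.186), and 1, Smr2, lower (-0.49, adjusted p = 0.0139), and none was called with trends removed. Of the 7 defining markers of sensory neurons, Prph (0.23, adjusted p = 0.0277), the tubulin gene Tubb3 (0.25, adjusted p = 0.0251) and the ubiquitin hydrolase gene Uchl1 (0.25, adjusted p = 0.0154) rose by small amounts, and these 3 calls also ended with trends removed. Scn9a fell, and the actin regulator gene Avil (0.13, adjusted p = 0.112), the transcription factor gene Isl1 (0.014, adjusted p = 0.896) and Scn10a (-0.056, adjusted p = 0.629) were not called. Of 14 tubulin genes 10 were called higher (71.4%), 5 with trends removed. The first of the 10 were Tuba1b (0.37, adjusted p = 0.00184) and Tubb4a (0.31, adjusted p = 0.00305). Of 32 actin and actin-binding genes 12 were called higher (37.5%) and 1 lower (3.125%). The raised ones included Arpc1a of the Arp2/3 complex (0.25, adjusted p = 0.00235) and beta-actin, Actb (785, 733, 700.4 and 749 CPM with saline, 870.2, 883, 978 and 899.7 CPM with DMI, 0.29, adjusted p = 0.00447). Actb is often used as a reference gene, and its groups did not overlap here.

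Several genes known to rise in sensory neurons after their axons are cut were higher in Sham-DMI. These mice had sham surgery, and whether nerve was damaged in any of them was not tested. Of 22 tested genes of this list 7 were called higher (31.8%, against 11.6% of all tested genes) and 1 lower (4.55%, against 11.9%). The median log2 fold change was 0.24. The lowered gene was Cacna2d1 (-0.57), described above. The list summed to 900 to 959 CPM in Sham-Saline and 884 to 1003 CPM in Sham-DMI, with overlap. Nts, which encodes the neuropeptide neurotensin, read 12.1, 10.8, 8.62 and 9.87 CPM in Sham-Saline, 18.4, 24.2, 15.8 and 38.7 CPM in Sham-DMI and 73.3, 65.96, 62.8 and 82.2 CPM in SNI-Saline. All Sham-DMI libraries lay above all Sham-Saline libraries and below all SNI-Saline libraries (log2 fold change 1.24 ± 0.23, adjusted p = 0.00278). Ecel1, a peptidase of injured neurons, read 1.79, 1.82, 2.46 and 1.43 CPM in Sham-Saline, 3.79, 6.29, 2.85 and 4.65 CPM in Sham-DMI and 14.4, 18.7, 19.1 and 15.1 CPM in SNI-Saline, in the same order (log2 fold change 1.24 ± 0.26, adjusted p = 0.00492). Cckbr, the cholecystokinin B receptor gene, read 0.643, 0.607, 0.623 and 0.604, 1.06, 2.18, 0.674 and 2.74 and 6.72, 7.69, 6.07 and 6.48 CPM in these groups (log2 fold change 1.46 ± 0.33, adjusted p = 0.00701). Its level in Sham-DMI 3 was barely above that of saline, and Sham-DMI 2 and 4 were the highest. Sprr1a, a growth cone gene of regenerating axons, read 0.939, 2.06, 0.982 and 0.619 CPM in Sham-Saline, 1.81, 12.2, 1.67 and 9.19 CPM in Sham-DMI and 41.1, 45.2, 43.7 and 45.5 CPM in SNI-Saline (log2 fold change 2.46 ± 0.54, adjusted p = 0.00667). The groups overlapped for Sprr1a, and its rise lay in Sham-DMI 2 and 4. Atf3, a transcription factor of injured neurons, showed the same, with 12.1, 11.9, 10.6 and 7.44 CPM in Sham-Saline and 11.4, 20.6, 13.7 and 21.8 CPM in Sham-DMI (log2 fold change 0.69 ± 0.22, adjusted p = 0.0391).

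The members of the injury list thus differed in how far they rested on Sham-DMI 2 and 4. Without these libraries, an alternative chosen after their values were seen, Nts (0.73, adjusted p = 0.0174), Ecel1 (0.83, adjusted p = 0.0541) and the growth cone gene Gap43 (0.29, adjusted p = 0.0123, 0.25 with all libraries) were still called higher. Cckbr (0.51, adjusted p = 0.222), Sprr1a (0.59, adjusted p = 0.415), Atf3 (0.25, adjusted p = 0.503) and Npy (0.81, adjusted p = 0.485, 2.23 with all libraries) were not. The list as a whole then held 3 called higher. Leaving out Sham-DMI 4 alone ended the call of Atf3 (adjusted p = 0.113), as did leaving out Sham-Saline 4 (adjusted p = 0.118). In SNI mice the DMI effect was -0.054 for Nts (adjusted p = 0.918) and 0.20 for Sprr1a (adjusted p = 0.837). The difference between both DMI effects was not called for Nts (adjusted p = 0.619), Ecel1 (adjusted p = 0.619) or any other gene.

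**Figure D4:**
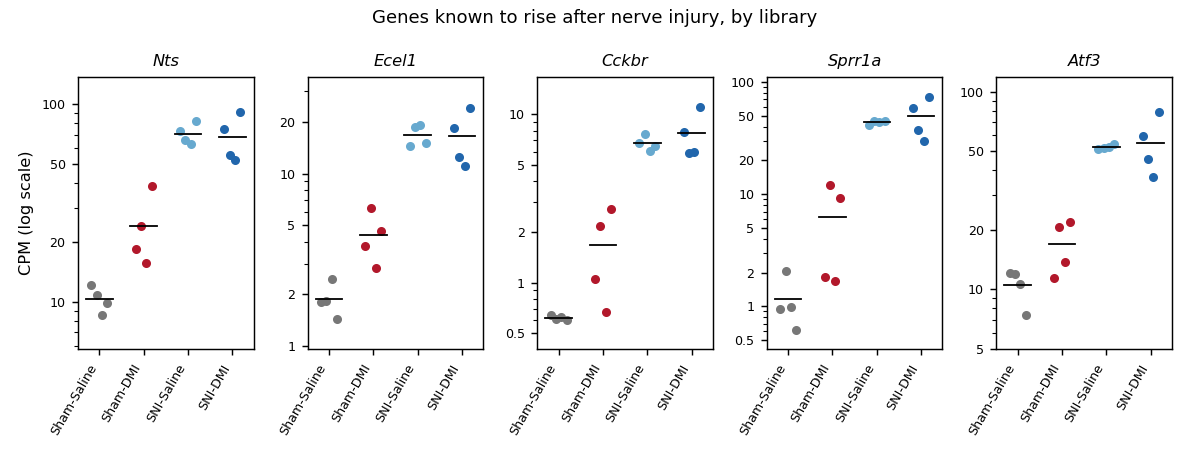
CPM on a log axis of Nts, Ecel1, Cckbr, Sprr1a and Atf3 in each of the 16 libraries, with a bar at each group mean. Nts and Ecel1 are higher in all 4 Sham-DMI libraries than in any Sham-Saline library, Sprr1a and Atf3 stand high in Sham-DMI 2 and 4, and both SNI groups lie above the sham groups.

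The promoters of Nts and Sprr1a are shown as those of the injury list that hold an AP-1 motif, the site that Jun and its partners are known to bind. The windows are chr10:102490419-102490668 and chr3:92485882-92486131, both on the minus strand, from RefSeq on GRCm38.p6, with the AP-1 motif TGANTCA in capitals.
Nts: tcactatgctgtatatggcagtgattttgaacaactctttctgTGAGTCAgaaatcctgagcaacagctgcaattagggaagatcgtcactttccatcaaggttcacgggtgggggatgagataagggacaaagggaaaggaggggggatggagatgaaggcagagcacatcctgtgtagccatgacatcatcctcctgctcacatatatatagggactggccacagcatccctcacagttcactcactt
Sprr1a: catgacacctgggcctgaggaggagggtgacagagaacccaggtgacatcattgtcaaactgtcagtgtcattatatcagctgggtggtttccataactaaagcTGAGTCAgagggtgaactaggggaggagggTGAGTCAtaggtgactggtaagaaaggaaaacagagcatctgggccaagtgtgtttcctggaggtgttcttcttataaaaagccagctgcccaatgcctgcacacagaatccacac
The motif begins 207 bases before the start of Nts and 146 and 116 bases before that of Sprr1a. It was present in 2 of the 16 promoters of the injury list that were found (12.5%), in 4.61% of all promoters of tested genes, in 4.21% of those of called higher genes and in 4.10% of those of called lower genes.

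Of 21 immediate early genes, which report recent activity or handling, 3 were called higher and 3 lower, 14.3% in each direction and near the 11.6% and 11.9% over all tested genes. Leaving out 1 library gave 1 to 3 higher and 1 to 5 lower. Without Sham-Saline 4 there were 1 higher and 5 lower, and without Sham-Saline 2, Sham-Saline 3 or Sham-DMI 1 there was 1 lower. Ier3 read 19.3, 17.9, 20.04 and 21.5 CPM in Sham-Saline and 29.5, 24.8, 23.2 and 25.5 CPM in Sham-DMI (log2 fold change 0.39 ± 0.075, adjusted p = 0.00327), and Egr1 15.3, 15.8, 13.9 and 11.1 and 9.51, 8.22, 9.57 and 12.2 CPM (log2 fold change -0.51 ± 0.15, adjusted p = 0.0323). Ier3 did not overlap between groups and Egr1 did, through Sham-Saline 4 and Sham-DMI 4. Arc was higher (0.47, adjusted p = 0.0324), a call that ended with trends removed and without Sham-Saline 4 (adjusted p = 0.104).

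The genes of the monoamine transporters that tricyclics block were not called. Slc6a2, the noradrenaline transporter gene, was low, at 0.157, 0.198, 0.545 and 0.0906 CPM in Sham-Saline and 0.0854, 0.110, 0.0999 and 0.126 CPM in Sham-DMI. The single high value was that of Sham-Saline 3, and the gene was not called (-1.21, adjusted p = 0.175). Slc6a4, the serotonin transporter gene, read 0.125 to 0.282 and 0.150 to 0.478 CPM (adjusted p = 0.656). None of the 9 adrenergic receptor genes was called, with estimates from -0.52 to 0.73. The one with the smallest p was Adra2c, an alpha-2 receptor gene, at 21.3, 26.8, 24.1 and 25.1 CPM and 31.7, 26.99, 26.8 and 25.8 CPM (0.19, adjusted p = 0.169). Its groups overlapped only through Sham-Saline 2. Slc18a2, the vesicular monoamine transporter gene, fell from 7.48, 6.62, 6.06 and 6.58 CPM to 3.55, 5.57, 4.70 and 3.72 CPM without overlap (log2 fold change -0.61 ± 0.16, adjusted p = 0.0175) and had the smallest p in the list of 16 monoamine genes. Maoa (-0.16, adjusted p = 0.0389) and Maob (-0.52, adjusted p = 0.0962), for the enzymes that break down monoamines, were also called lower, but Maob lost its call without any 1 of 6 libraries (adjusted p up to 0.310), and Maoa lost its own without Sham-Saline 1, Sham-Saline 3 or Sham-DMI 1 (adjusted p up to 0.181) and turned to 0.0099 with trends removed. Of 14 serotonin receptor genes Htr4 alone was called (-0.41, adjusted p = 0.0475), and that call ended with trends removed and without any 1 of 4 libraries (adjusted p up to 0.191).

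Lysosomal genes rose modestly. Of 38 tested, 20 were called higher (52.6%) and 1 lower (2.63%), against 11.6% and 11.9% of all tested genes. The median log2 fold change was 0.13, and with trends removed 16 were called higher and 0 lower. Atp6v0b of the proton pump read 148, 155, 139 and 157 CPM in Sham-Saline and 188, 168, 188 and 182 CPM in Sham-DMI (log2 fold change 0.28 ± 0.051, adjusted p = 0.00292), and the protease gene Ctsd 421, 418, 404 and 399 and 485, 475, 524 and 478 CPM (log2 fold change 0.26 ± 0.049, adjusted p = 0.00327). Both were higher in all 4 DMI libraries. Smpd1, for the acid sphingomyelinase that DMI is known to impair, read 92.9, 92.4, 92.6 and 89.1 and 97.8, 97.1, 103 and 101 CPM, without overlap but with a small difference (0.12, adjusted p = 0.0643), and it was not called with trends removed (adjusted p = 0.588) or without Sham-Saline 2 or 4 (adjusted p = 0.107 and 0.165). Cholesterol genes did not move together. Of 24 tested, 5 were called higher (20.8%) and 1 lower (4.17%), with a median of 0.012. The raised ones included the synthesis enzymes Ebp (0.30, adjusted p = 0.00264), Pmvk (0.30, adjusted p = 0.00295), Fdft1 (0.24, adjusted p = 0.00416) and Mvd (0.32, adjusted p = 0.00424).

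Stress genes showed a partial rise. Of 23 genes of the unfolded protein and integrated stress responses 11 were called higher (47.8%) and 3 lower (13.04%). Over all tested genes the shares were 11.6% and 11.9%. The raised ones included the secretory chaperone genes Pdia6 (0.25, adjusted p = 0.00462) and Creld2 (0.34, adjusted p = 0.00722), and the co-chaperone gene Dnajb9, a target of the same response, was lower (-0.28, adjusted p = 0.00361). Of 13 heat shock genes 5 were called higher (38.5%), and 3 without Sham-Saline 3 or Sham-DMI 4. Among the 5 were Hspa8 (0.24, adjusted p = 0.0104) and Hspb1 (0.28, adjusted p = 0.0156), the latter not with trends removed. Mt1, a metal-binding metallothionein, read 29.5, 36.1, 27.1 and 30.7 CPM in Sham-Saline and 42.8, 41.2, 43.4 and 53.3 CPM in Sham-DMI (log2 fold change 0.55 ± 0.081, adjusted p = 0.00176), and Mt3 rose as well (0.37, adjusted p = 0.00446). Mt1 did not overlap between groups. Of 18 glucocorticoid-responsive genes none was called higher and 4 were called lower (22.2%, against 11.9% of all tested genes), 3 with trends removed. Klf9 read 73.2, 67.8, 78.2 and 75.1 CPM in Sham-Saline and 56.1, 65.5, 57.4 and 51.6 CPM in Sham-DMI without overlap (log2 fold change -0.35 ± 0.065, adjusted p = 0.00292). The glucocorticoid receptor gene Nr3c1 was lower (-0.28, adjusted p = 0.00920) but not with trends removed. Of 18 clock genes 4 were called lower (22.2%), 2 with trends removed. In the bin of exon length that holds the median of this list, 14.6% of genes were called lower. The 4 included Clock (-0.34, adjusted p = 0.00559), Rora (-0.42, adjusted p = 0.00875) and Per1 (-0.30, adjusted p = 0.0311). The call of Per1 ended without Sham-Saline 1 or Sham-DMI 4 (adjusted p = 0.135 and 0.101), and with trends removed Clock was not called. The hour of dissection is not given in the sources used here.

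Of the immune lists, neutrophil transcripts fell by most at the median. Of 13 tested markers 10 were called lower, with a median log2 fold change of -1.499. S100a8, a subunit of calprotectin, read 4.71, 8.07, 2.21 and 8.20 CPM in Sham-Saline and 1.69, 2.76, 0.824 and 1.07 CPM in Sham-DMI, a 3.58-fold decrease (log2 fold change -1.84 ± 0.43, adjusted p = 0.00834). Ngp, a granule protein, read 5.13, 6.58, 2.12 and 6.91 and 1.33, 3.12, 0.899 and 1.80 CPM (log2 fold change -1.51 ± 0.43, adjusted p = 0.0238). Retnlg, a resistin-like gene of neutrophils, read 1.13, 1.26, 0.608 and 1.33 and 0.273, 0.357, 0.0749 and 0.173 CPM (log2 fold change -2.22 ± 0.44, adjusted p = 0.00398). For S100a8 and Ngp the groups overlapped, since Sham-Saline 3 was low and Sham-DMI 2 was the highest of its group, and for Retnlg they did not. S100a9 (-1.62, adjusted p = 0.0261), the collagenase gene Mmp8 (-1.94, adjusted p = 0.0188) and the receptor gene Csf3r (-1.06, adjusted p = 0.0238) also fell. Elane and Mpo, the granule enzymes of immature neutrophils, were not called, though Mpo (-0.31) was called lower without Sham-DMI 2 (-1.69, adjusted p = 0.0323). The summed level of the list ran from 15.7 to 50.4 CPM in Sham-Saline and from 6.89 to 23.4 CPM in Sham-DMI, with overlap. The summed level of red cell transcripts, which come with blood left in the tissue, was 133, 98.7, 36.6 and 81.00 CPM in Sham-Saline and 32.5, 114, 28.5 and 46.3 CPM in Sham-DMI (exact two-sided permutation p = 0.314, n = 4 per group). Sham-Saline 3 and Sham-DMI 2 were at opposite ends of their groups here too. No red cell gene was called with all libraries and 8 of 11 were called lower without Sham-DMI 2, whether or not Sham-DMI 4 was left out too, when 11 neutrophil genes were. The part of blood in the neutrophil result was not tested.

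B cell transcripts were lower as well, from low levels. Of 10 tested markers 6 were called lower (median -1.25). Pax5, the transcription factor that holds B cell identity, read 0.922, 1.13, 0.545 and 0.740 CPM in Sham-Saline and 0.324, 0.343, 0.300 and 0.394 CPM in Sham-DMI (log2 fold change -1.28 ± 0.29, adjusted p = 0.00743). Ighd, for the immunoglobulin D heavy chain, read 0.591, 0.353, 0.483 and 0.634 and 0.171, 0.0274, 0.0749 and 0.0788 CPM (log2 fold change -2.55 ± 0.56, adjusted p = 0.00668), or 132 and 20 reads in all. Neither gene overlapped between groups. Jchain, of secreted antibody, was also lower (-1.31, adjusted p = 0.0144). The defining markers did not all follow. Cd79a read 1.65, 1.27, 1.08 and 1.16 CPM in Sham-Saline and 1.09, 1.04, 0.974 and 1.4976 CPM in Sham-DMI, and Ighm 43.8, 42.7, 48.4 and 40.5 and 44.03, 30.1, 45.03 and 38.5 CPM, with groups that overlapped and no call, while Vpreb3 held 20 reads over the 4 Sham-Saline libraries and 9 over Sham-DMI and was not tested. In SNI mice, the log2 fold change with DMI was -0.30 for Pax5 (adjusted p = 0.625) and -0.66 for Ighd (adjusted p = 0.495).

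**Figure D5:**
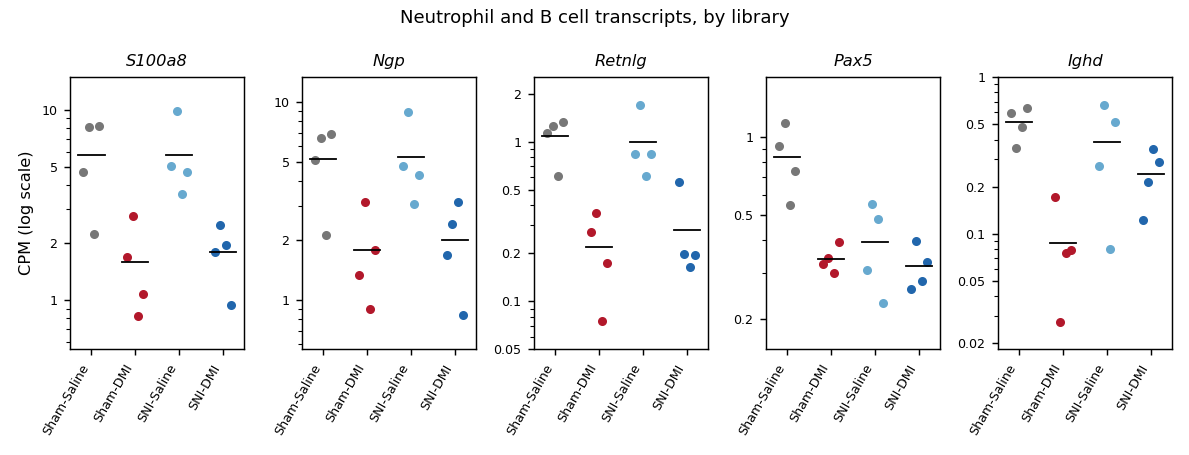
CPM on a log axis of the neutrophil genes S100a8, Ngp and Retnlg and of the B cell genes Pax5 and Ighd in each of the 16 libraries, with a bar at each group mean. The Sham-DMI means lie below the Sham-Saline means for all 5, and the groups do not overlap for Retnlg, Pax5 and Ighd.

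Other immune groups had fewer calls, with estimates mostly below 0. Over all tested genes 11.9% were called lower, and in the lists below from 0% (T and natural killer cells, mast cells) to 18.4% (interferon-stimulated genes). Macrophage markers (12.5%) and complement genes (11.1%) were near the share over all tested genes, and inflammasome (6.67%) and cytokine (8.33%) genes were below it. Of 16 macrophage markers 2 were called lower, led by the integrin gene Itgam (-0.72, adjusted p = 0.0388), whose call ended without Sham-DMI 2 (adjusted p = 0.102), while the defining markers Cd68 (3.30 to 3.85 CPM with saline, 2.53 to 4.77 CPM with DMI), Csf1r (23.1 to 25.5 and 18.1 to 23.9 CPM) and C1qa (18.6 to 22.5 and 15.1 to 22.8 CPM) were not called. Of 38 interferon-stimulated genes 7 were called lower and 1 higher (median -0.32, 33 estimates below 0, against 53.3% of all tested genes), 3 lower with trends removed and 3 without Sham-Saline 1. The viral RNA sensor gene Ifih1 (-0.68, adjusted p = 0.00942) and Rsad2 (-0.75, adjusted p = 0.0143) fell in both fits, and Ifi27 rose (0.31, adjusted p = 0.00283). Of 13 class II antigen presentation genes H2-Ob, a gene of B cells, was the one called (-1.36, adjusted p = 0.0277). Of 17 phagosome and Fc receptor genes 3 were called lower and all 17 estimates were below 0 (median -0.29), first the fungal receptor gene Clec7a (-0.96, adjusted p = 0.0263), and of 18 complement genes 2, first C1s1 (-0.50, adjusted p = 0.0213), whose call ended without Sham-Saline 3 (adjusted p = 0.104). Of 20 genes of Toll-like receptors and their signalling 3 were called lower (median -0.25), none without Sham-DMI 1, and the list summed to 166 to 175 CPM in Sham-Saline and 154 to 163 CPM in Sham-DMI, without overlap. Of 15 inflammasome genes 1 was called lower (median -0.20), and of 17 genes of class I presentation and the immunoproteasome 3 were called lower and 1 higher (median -0.25), with no lower call without any 1 of 5 libraries. Of 24 tested cytokine and chemokine genes 2 were called lower. None of the 11 T and natural killer cell markers and none of the 5 mast cell markers was called.

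Of 14 endothelial markers 3 were called lower (21.4%, against 11.9% of all tested genes, median -0.26), and these were the growth factor receptor genes Tek, Flt1 and Eng. With 1 library left out the number ran from 2 (without Sham-Saline 3) to 6 (without Sham-DMI 2). Flt1, a receptor for vascular endothelial growth factor, read 25.8, 27.7, 30.5 and 25.2 CPM in Sham-Saline and 14.1, 25.2, 19.4 and 20.1 CPM in Sham-DMI (log2 fold change -0.47 ± 0.12, adjusted p = 0.0156). The groups met without overlap at Sham-Saline 4 and Sham-DMI 2, which lay side by side, and Tek did not overlap either (-0.44, adjusted p = 0.0136). Eng did (-0.56, adjusted p = 0.0243), and it was not called without Sham-Saline 3 (adjusted p = 0.110). Of 12 pericyte and smooth muscle markers 4 were called lower, first the potassium channel subunit gene Abcc9 (4.40, 4.09, 5.27 and 3.83 CPM with saline, 2.53, 2.83, 2.85 and 3.39 CPM with DMI, -0.60, adjusted p = 0.00841), and 1 was without Sham-Saline 3, Sham-DMI 1 or Sham-DMI 4. Of 44 collagen genes 4 were called lower and 1 higher, with Col12a1 at -0.70, adjusted p = 0.0246. Without Sham-Saline 3 Col12a1 was not called (adjusted p = 0.124) and 1 collagen gene was lower, against 11 without Sham-Saline 1. None of 12 fibroblast, 13 myelinating Schwann cell or 9 adipocyte markers was called, though 11 fibroblast estimates were below 0 (median -0.30) and 6 were called lower without Sham-Saline 1. Nor was any of 9 skeletal muscle markers called, which stood out in Sham-Saline 1. Of 12 satellite glia markers 2 were called higher and 2 lower, 16.7% in each direction and near the 11.6% and 11.9% over all tested genes. Fabp7, a fatty acid carrier, was higher (0.31, adjusted p = 0.0388, but 0.101 without Sham-Saline 3). The adhesion gene Cadm2 was lower (30.2, 27.7, 28.1 and 29.6 CPM with saline, 16.3, 22.6, 20.9 and 18.3 CPM with DMI, -0.57, adjusted p = 0.00184). So was the defining marker Cdh19 (75.4 to 101 CPM with saline, 43.3 to 70.6 CPM with DMI). The defining markers Kcnj10 and Glul were not called.

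Genes that the study names for injured mice were looked up in sham mice. Among them Actb and S100a8 are described above, and the chitinase-like gene Chil3 was called lower (1.01, 1.81, 0.545 and 1.69 CPM with saline, 0.444, 1.002, 0.0749 and 0.583 CPM with DMI, -1.20, adjusted p = 0.0919), a call that ended without any 1 of 6 libraries (adjusted p up to 0.211). Il6 (0.0312 to 0.240 CPM with saline and 0.124 to 0.225 CPM with DMI), Htr2c (0.157 to 0.343 and 0.171 to 0.247 CPM), Drd2 (1.65 to 3.49 and 1.25 to 3.71 CPM), Gabrg3 (3.25 to 7.31 and 2.54 to 4.87 CPM), Kcnk3 (17.9 to 41.4 and 19.7 to 42.8 CPM), Th (115 to 169 and 131 to 188 CPM) and Adamts4 (0.921 to 1.53 and 0.512 to 0.988 CPM) overlapped between groups and were not called. Without Sham-Saline 1 the GABA-A receptor gene Gabrg3 was called lower (adjusted p = 0.0776), and without Sham-DMI 3 the dopamine synthesis gene Th was called higher (adjusted p = 0.0782).

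The 8 SNI libraries came from other animals than the sham calls, although the fit took its filter, scaling and spread from all 16. On the 8 sham libraries alone edgeR called 3742 genes. Of the called higher genes 90.5% were also higher with DMI under SNI, against 69.7% of all tested genes higher under sham, and 38.1% were higher at a nominal p under 0.05, against 8.89% of all tested genes. Of the called lower genes 89.4% were also lower, against 69.1% of all tested genes lower under sham, and 40.5% lower at a nominal p under 0.05, against 9.64% of all. Their median log2 fold changes under SNI were 0.12 and -0.16. Under SNI Ndufs7 was again higher (0.33, adjusted p = 0.0622), Zfp758 again lower (-0.67, adjusted p = 0.0630) and S100a8 too (-1.70, adjusted p = 0.0747), while Thsd7a was at 0.0045 under SNI (adjusted p = 0.982). Under SNI 626 genes were called (2.93%), and none without any 1 of 5 of the SNI libraries. The difference between the 2 effects was called for 0 genes by edgeR's quasi-likelihood test (0%), with 1692 at a nominal p under 0.05 (7.92%), a smallest adjusted p of 0.590 and 16 called by DESeq2. DMI and saline libraries were numbered in separate blocks in the SNI groups as well, so library order is shared by both comparisons.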

How the data were processed

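Raw read counts per Ensembl gene were deposited, 1 file per library. Per the labels and the methods of the study, DRG RNA was made into stranded mRNA libraries, sequenced as 50-base pairs, aligned to mm10 with HISAT2 and counted with HTSeq by the authors, and the use of strand in counting is not given in the sources used here. Reads outside genes or ambiguous between them (HTSeq's summary lines) stayed out of library sizes and tests, and reads on genes made up 79.6% to 81.2% of read pairs in the sham libraries.

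Counts from all 16 libraries were fitted with 1 coefficient per group in edgeR 4.0.16 (R 4.3.3, glmQLFit and glmQLFTest, TMM, filterByExpr, which left 21371 genes), and a gene was called at a Benjamini-Hochberg adjusted p under 0.1. CPM values are TMM-scaled and given in replicate order. For library measures a two-sided exact permutation test was used, which at 4 against 4 cannot go below 0.0286. Each library is 1 mouse. GC and length trends were removed within each library by smooth functions (mgcv 1.9.3) of transcript GC and exon length from GENCODE on GRCm38. The test was run on simulated data first. Replicate numbers were not treated as pairs. Alternatives were other filters, other normalizations, DESeq2 1.42.0, fits of the sham libraries alone, the replicate block and leaving out each library, and the removal of Sham-DMI 2 and 4 was added after their values were seen.

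The members, gene lists and tests were chosen with earlier results of these data known. Genes were named by rule: the 12 genes with the smallest p in each direction with no overlap between groups and a mean of at least 1 CPM, the 5 with the largest fold under the same conditions, up to 4 members of each list with the smallest p, drug targets, defining markers and genes the study names. Mitochondrial tRNA genes as a group, mt-Ty, mt-Te, mt-Nd4 and Mpo were named after their values were seen. Some genes that the rule names are not reported here.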

Additional observations from a re-analysis of the deposited data

Results flagged for a closer look

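Of 322 groups of 4 libraries examined for the named genes and library measures, 21 held a library that stood apart from the other 3 (6.52%), where chance gives about 5%, so these are values to look at again and not findings.

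In Sham-Saline, the library that stood apart was replicate 1 for Zfp758 (15.9 CPM, highest), Gria2 (52.01 CPM, highest), Asic3 (154 CPM, highest), Clock (107 CPM, highest), the mean GC content of counted reads (49.7%, lowest) and the summed skeletal muscle markers (64.3 CPM, highest). It was replicate 2 for Npy (1.55 CPM, highest) and Gap43 (254 CPM, highest), and replicate 4 for Naa30 (37.8 CPM, highest), mt-Tn (3.32 CPM, highest) and Smpd1 (89.1 CPM, lowest).

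In Sham-DMI it was replicate 1 for Zfp934 (2.43 CPM, lowest), Dek (20.8 CPM, highest), Trpv2 (123 CPM, highest), Gap43 (306 CPM, highest), Maoa (62.8 CPM, lowest) and Col12a1 (10.1 CPM, lowest). It was replicate 2 for Arl5a (74.4 CPM, highest) and Mpo (1.96 CPM, highest), replicate 3 for Tubb3 (2704 CPM, highest) and replicate 4 for Ndufs1 (187 CPM, highest).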

How the results depend on the processing

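The sham calls (5010) kept within 1.5 times their number, from 3742 (edgeR on the 8 sham libraries alone) to 5580, under the other filters, normalizations, sets of libraries fitted and DESeq2, and also without Sham-DMI 2 and 4 (5367). They fell to 3207 with GC and length trends removed and to 2901 with the replicate block in addition. DEGs numbered 6538 with no cut-off on the fold change and 1609 with trends removed. Leaving out 1 library gave 3286 (without Sham-Saline 3) to 6094 (without Sham-DMI 2) calls and 1798 to 3410 DEGs. Under SNI the 626 calls became 1859 by DESeq2, 172 with the replicate block, 73 with trends removed and 0 to 1842 with 1 library left out. The difference between the DMI effects was called for 16 genes by DESeq2 and for 0 to 1 with 1 library left out.

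The replicate numbers of the labels did not pair the sham libraries: same-numbered libraries deviated together with correlations of -0.081 to 0.129, and 0 of 4 pairs matched best with its own number. With that pairing as a block 4739 genes were called.

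Among 148 named genes tested, 132 were called, of which 95 kept the call in every planned setting, 24 lost it with trends removed and 22 without at least 1 library. With trends removed, without and with the block, the log2 fold change reversed for Gria2 (0.065 and 0.064), Maoa (0.0099 and 0.010), mt-Nd2 (0.14 and 0.13) and mt-Co1 (0.048 and 0.040). With 1 library left out it ran from -0.18 to 0.035 for mt-Co1, from -1.69 to 0.20 for Mpo, from -0.11 to 0.0040 for Scn10a, from -0.047 to 0.12 for mt-Nd4 and from -0.52 to 0.00028 for Mobp, none of them called with all libraries. The causes of these changes were not tested. Of the named genes, 70 overlap another gene, and without known strand use in counting their reads cannot be assigned with certainty. Library numbers run in separate blocks for DMI and saline, so batch and treatment cannot be told apart.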
